A study of Mus musculus with 6 samples.

Results

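The chemokine and chemokine receptor genes were read in mouse hind limb skeletal muscle, wild type against deficient in the laminin alpha 2 chain. Members were all genes whose symbol begins with Ccl, Cxcl, Cx3cl, Ccr, Cxcr or Cx3cr and a number, taken from probe sets that carry exactly 1 gene symbol, and each gene was read by its probe set of highest mean signal. The rule found 48 genes, 32 of them ligands and 16 of them receptors, out of 18193 genes with such a probe set. Laminin alpha 2 is the subunit that ties muscle fibres to their basement membrane. Each group held 3 mice, all 4 weeks old, and the hind limb muscle of each mouse was taken separately for 1 Affymetrix array. The labels name neither the allele, the strain background nor any treatment. Levels are given in the linear signal units of the deposited table and are compared only within a probe set.

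Chemokines are small secreted proteins that bind G protein-coupled receptors on leukocytes and set the direction in which those cells move. The CC group, named after adjacent cysteines, includes the main attractants of monocytes, while the CXC group includes the attractants of neutrophils, activated T cells and B cells. In injured muscle, Ccl2 and its receptor Ccr2 are known for drawing inflammatory monocytes out of the blood, and Cx3cr1 marks the monocytes and macrophages that clear debris and accompany repair.

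The libraries differed within each group as well as between the groups. Lama2, the gene of the missing chain, read 428.7, 415.6 and 326.2 in wild type replicates 1 to 3 and 82, 31.1 and 140.4 in deficient replicates 1 to 3 (difference -2.17 on the scale of log2(signal + 16), limma adjusted p = 0.0206). The Y-linked Eif2s3y read between 414.6 and 573.7 in replicates 1 and 2 of both groups and 10.7 and 9.1 in wild type and deficient replicate 3, and the Y-linked Kdm5d and Uty divided the libraries the same way. Xist, which is transcribed from the inactive X chromosome, read 1163 and 1839 in the replicates numbered 3 and at most 19.1 in the others, except deficient replicate 1, which read 396.3 for Xist beside 414.6 for Eif2s3y and so carried both kinds of transcript. Whether that library holds the RNA of 1 mouse was not tested, and n = 3 rests on the labels. Fibre markers such as Acta1 and Ckm were bright in every library, and the 8 fibre markers summed to between 68420 units in deficient replicate 1 and 90830 units in deficient replicate 2. Summed signal of 12 macrophage and monocyte markers was 2900 to 4034 units in wild type and 10880, 7930 and 4187 units in deficient replicates 1, 2 and 3. The sums did not overlap, but that of deficient replicate 3 stood close to wild type. Such a sum rests most on its brightest genes, here Lyz2 and Csf1r. Of these 12 markers, 2 rose (Mpeg1 and Gpnmb), 0 fell and 10 did not pass. For the 2 that rose, deficient replicate 3 was well above wild type. It read 525.5 units for Mpeg1 (92.7 to 117.5 in wild type) and 139.9 for Gpnmb (43.4 to 47 in wild type). For Mrc1 it was below wild type, at 298.6 units against 334.3 to 492.9. The 8 neutrophil markers summed to 437.7, 2946 and 1278 units in wild type and 2176, 6050 and 627.7 units in deficient replicates 1 to 3, which overlap. The 7 hair follicle and epidermis markers summed to 2051, 1103 and 235.3 units in wild type and to 163.1 to 279.7 units in deficient muscle. Summed signal was 218.6 to 270 units in wild type and 169.1 to 219.9 units in deficient muscle for 8 T cell markers, 81.4 to 96 against 69.8 to 78.8 units for 5 NK cell markers and 30.9 to 50 against 22.9 to 78.5 units for 4 eosinophil markers. Of these lists 5, 3 and 1 markers were tested and 0 were called, and no listed marker was at 0 in all libraries. Of 5 markers of all leukocytes, 1 rose (Laptm5, difference 1.32, adjusted p = 0.0162) and 4 did not pass. Their sums overlapped, at 1299 to 1565 units in wild type and 1330 to 3967 units in deficient muscle. In other lists, the hair follicle gene Tchh fell (-2.95, adjusted p = 0.0486). Among 4 adipocyte markers, 0 of which had a difference above 0, the brown fat gene Ucp1 fell (-4.16, adjusted p = 0.00441). The ratio of 5' to 3' beta-actin control probes, a sign of RNA quality, was 1.04 to 1.15 in wild type and 0.819, 0.51 and 0.573 in deficient replicates 1 to 3; it moved with the groups, and its part in the differences given here was not tested. In whole muscle, a change in the number of cells of a type and a change in RNA per cell cannot be told apart.

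**Figure D1:**
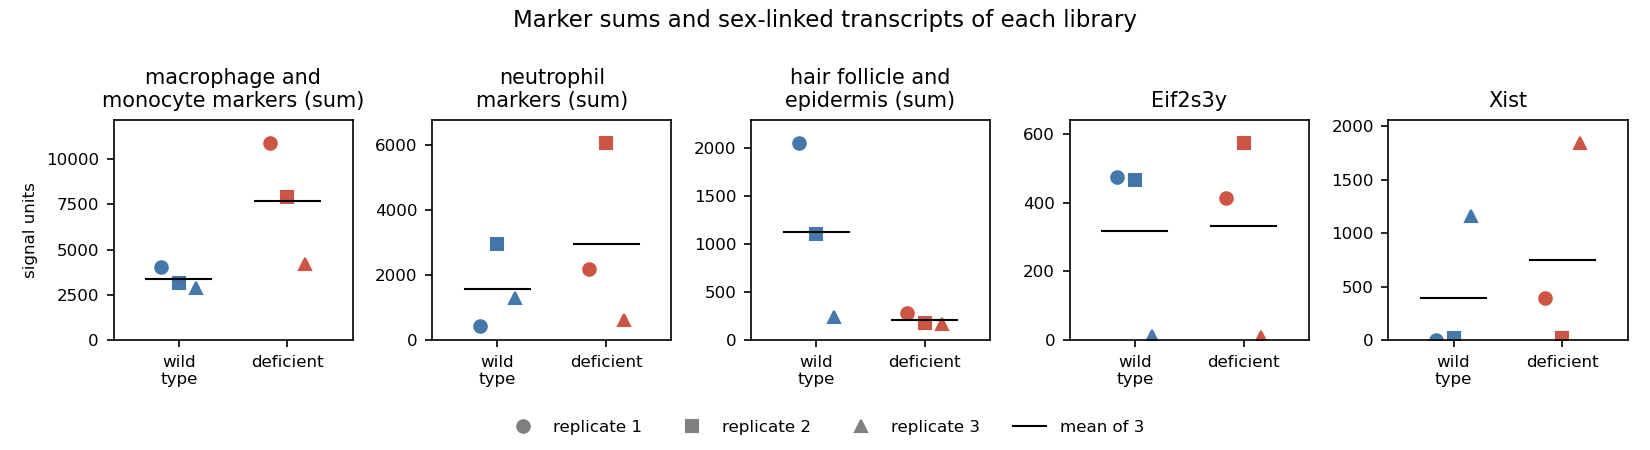
Signal units per library for the sums of macrophage and monocyte (12 genes), neutrophil (8 genes) and hair follicle and epidermis (7 genes) markers and for Eif2s3y and Xist, with symbols for the replicate number and bars for the mean of 3. Deficient replicate 1 has the highest macrophage sum, 10880 units, and has signal for both Eif2s3y and Xist.

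No member passed the test across all genes, and the members with the highest fitted differences, Ccl2, Ccr2, Ccl7, Ccl8, Ccl12 and Ccl6, were highest in deficient replicates 1 and 2. Of the 48 members, 32 had a mean signal at or above 15 units, the 40th percentile of all probe sets, and were tested; 16 were not. Limma called 0 of the 32 at an adjusted p under 0.05, against 2.7% of all 13098 genes tested (1.25% higher and 1.44% lower). At an unadjusted p under 0.05, 8 of the 32 were higher and 1 was lower, where all genes gave 9.44% higher and 9.49% lower. The 2 groups were fully apart for 5 members that were higher (Ccl2, Cxcl10, Cx3cr1, Cxcr4 and Cxcl1) and 1 that was lower (Ccl25), against 12.3% higher and 12.4% lower over all genes tested. A fitted difference of at least 1 on the scale of log2(signal + 16) was seen in 7 members, Ccl2, Ccr2, Ccl7, Ccl8, Ccl12, Ccl6 and Cx3cr1, against 2.28% of all genes tested, and 0 members differed by -1 or less, against 1.96%. Of these 7, Ccl2 and Ccl7 passed the filter only through the deficient libraries, where they were high. Their place in this count was thus favoured by the filter, and so was that of Ccl2 among the 5 without overlap and the 8 at an unadjusted p under 0.05. Over all 48 members, tested or not, the median difference was 0.06 on that scale and 29 were above 0, and over all 18193 genes the median was 0.01 and 9409 were above 0. The median was 0.18 over the 32 ligands and 0.04 over the 16 receptors.

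**Figure D2:**
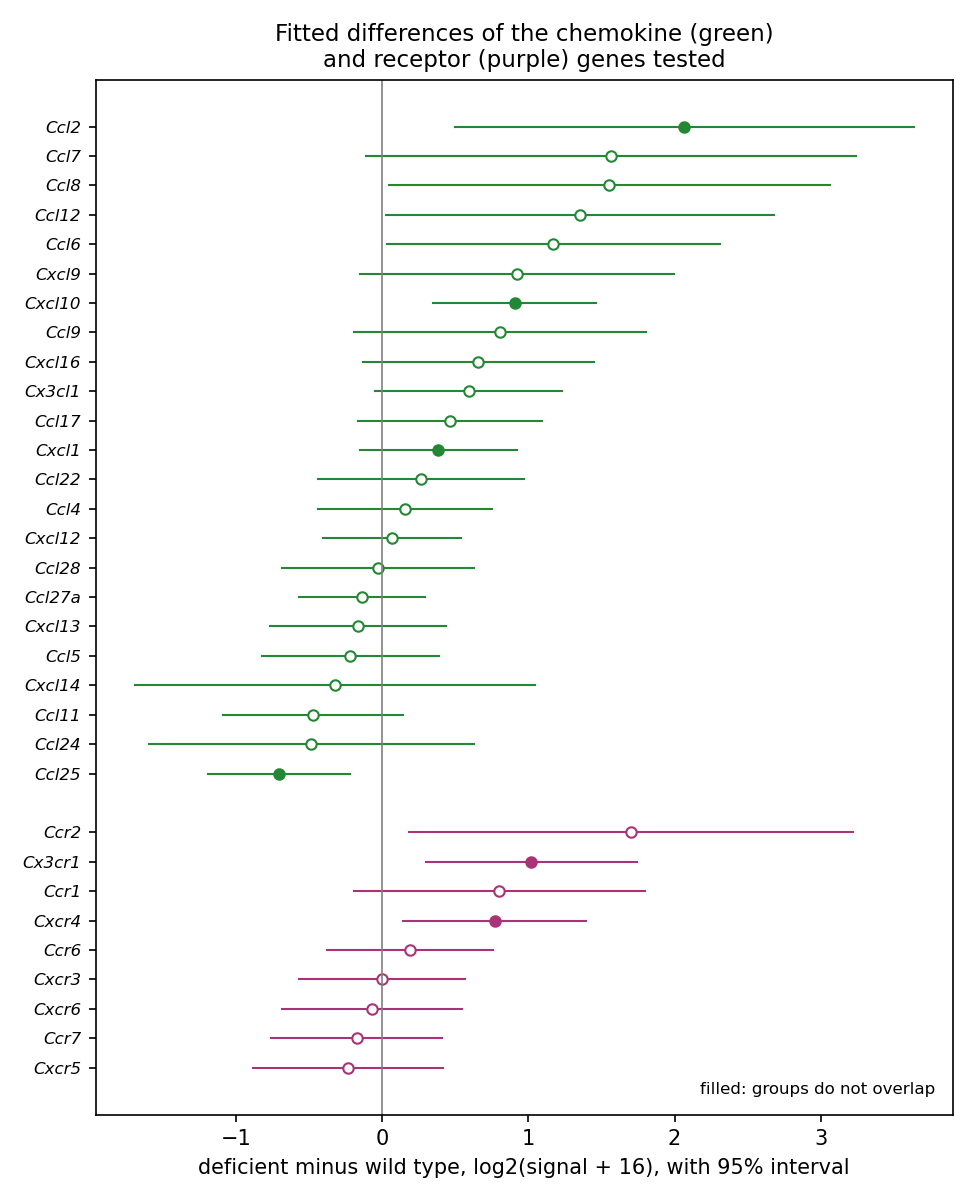
Deficient minus wild type difference on the scale of log2(signal + 16), as fitted by limma, for the 23 ligands and 9 receptors tested, with 95% intervals; filled points mark genes whose groups do not overlap. The highest ligand is Ccl2 at 2.07 and the highest receptor is Ccr2 at 1.70, and the intervals of both are wide.

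The libraries of the deficient group were far apart for these genes. Deficient replicate 1 was the highest of the 6 libraries for 15 of the 32 members tested (46.9%), where it was the highest for 16.7% of all genes. Deficient replicates 2 and 3 were the highest for 3 and 4 members, against 18.1% and 21.7% of all genes. Deficient replicate 3 was the lowest of the 3 deficient libraries for 21 members, against 40.2% of all genes. It was above every wild type library for 8 members (33% of all genes), while deficient replicate 1 was for 19 (31.1% of all genes) and deficient replicate 2 for 17 (36.1%). Without deficient replicate 1, limma called 0 members, and the differences were 1.15 for Ccl2 (2.07 with all libraries), 1.06 for Ccr2 (1.70), 0.94 for Ccl8 (1.55), 0.61 for Ccl7 (1.57), 0.59 for Ccl6 (1.17) and 0.54 for Ccl12 (1.35). They were 0.27 for Ccl9 (0.81), 0.31 for Cxcl9 (0.92), 0.20 for Ccr1 (0.80) and 0.40 for Cxcl16 (0.66), against 1.16 for Cx3cr1 (1.02) and 0.76 for Cxcl10 (0.91). Without deficient replicate 3, limma called 5 members higher, Ccl2, Ccl6, Ccl7, Ccl8 and Ccr2, and 0 lower, where 3.03% of all genes were called higher and 2.13% lower. With a term for Y-linked transcripts, which sets replicate 3 of each group against the other libraries, it called 6 higher, Ccl2, Ccl6, Ccl8, Cx3cr1, Cxcl10 and Cxcr4, and 0 lower, where 4.15% of all genes were called higher and 4.6% lower. The filter favoured Ccl2 and Ccl7 among the 5 and Ccl2 among the 6, since both genes passed only through the deficient libraries. Ccl2, Ccl7 and Ccl22, which passed in that way too, were likewise favoured in the counts by library above. Deficient replicates 1 and 2 had the highest macrophage marker sums as well, and the share of that in these differences was not tested.

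The ligands of Ccr2 come first. Ccl2, the chief attractant of inflammatory monocytes, read 13.2, 7.2 and 6.1 units in wild type replicates 1 to 3 and 353.6, 78.5 and 15.6 units in deficient replicates 1 to 3. Every deficient library was above every wild type library, though deficient replicate 3 stood close to wild type replicate 1. The fitted difference was 2.07 (95% interval 0.50 to 3.63, adjusted p = 0.15), from a mean of 8.83 ± 3.82 to one of 149 ± 180 units (SD, n = 3 per group here and below). Its wild type mean lay under the filter of 15 units, so Ccl2 entered the test only through the deficient libraries. Ccl7, another monocyte attractant that also binds Ccr1, read 2.7, 20.6 and 13.4 units in wild type and 287.2, 58.5 and 7.1 units in deficient muscle. Deficient replicates 1 and 2 were above wild type and deficient replicate 3 was inside its range, and Ccl7 too passed the filter only through the deficient libraries (difference 1.57, adjusted p = 0.296). Ccl12, which mice have beside Ccl2 as a ligand of Ccr2, read 24.7, 11.7 and 11.6 units in wild type and 233.2, 40.8 and 20.6 units in deficient muscle. Here deficient replicate 3 again lay inside the wild type range (difference 1.35, adjusted p = 0.254).

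Ccl2, Ccl7, Ccl11, Ccl12, Ccl8 and Ccl1 follow one another in that order on chromosome 11, with at most 2 other protein-coding genes between neighbours. Ccl8, which in mice acts through Ccr8, read 370.6, 126.8 and 89.6 units in wild type and 1216, 671.1 and 158.3 units in deficient replicates 1 to 3. Its wild type replicate 1 stood above deficient replicate 3, so the groups overlapped (difference 1.55, 95% interval 0.05 to 3.06, adjusted p = 0.25). Ccl11, which lies between Ccl7 and Ccl12 and attracts eosinophils through Ccr3, went the other way, with 151.6, 241.9 and 339.6 units in wild type and 194.1, 154.8 and 144.3 units in deficient muscle (difference -0.47, adjusted p = 0.387). Ccl1, at the end of the row, stayed between 2.1 and 9.7 units in all libraries and was under the filter. Deficient replicate 1 exceeded the wild type mean by 3.91 for Ccl2, 3.48 for Ccl7, 2.99 for Ccl12 and 2.78 for Ccl8 on the log2 scale, and deficient replicate 2 by 1.94, 1.45, 0.85 and 1.93. In deficient replicate 3 the same 4 differences were 0.36, -0.24, 0.22 and -0.05. Within the libraries with Y-linked transcripts (2 against 2) the differences were 2.84, 2.52, 1.83 and 1.97, and between the libraries without them (1 against 1) they were 0.52, -0.35, 0.41 and 0.72.

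The 250 bases before the start of Ccl12 and Ccl8, from RefSeq on GRCm38.p6, are shown because the pair are neighbours that had higher means together. Ccl12 is at chr11:82101595-82101844 and Ccl8 at chr11:82114935-82115184, both on the plus strand. Capitals mark matches to 5 motifs searched on both strands, which were the NF-kappaB consensus, the interferon response element (GAAA and GAAA again with any 2 bases between), the AP-1 letters TGANTCA, the TATA box letters TATAAA and GAGGAA, the core of sites of the myeloid factor PU.1.
Ccl12: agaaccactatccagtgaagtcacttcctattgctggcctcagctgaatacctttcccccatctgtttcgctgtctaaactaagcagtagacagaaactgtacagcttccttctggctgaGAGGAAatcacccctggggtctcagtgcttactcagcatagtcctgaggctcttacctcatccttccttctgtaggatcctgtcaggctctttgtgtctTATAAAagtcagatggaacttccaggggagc
Ccl8: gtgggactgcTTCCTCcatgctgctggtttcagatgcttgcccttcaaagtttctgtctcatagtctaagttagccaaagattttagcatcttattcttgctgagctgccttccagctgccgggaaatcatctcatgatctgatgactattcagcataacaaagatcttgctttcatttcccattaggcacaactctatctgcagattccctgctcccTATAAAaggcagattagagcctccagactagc
Both hold TATAAA close to the start, from base -31 in Ccl12 and from base -32 in Ccl8, and GAGGAA on one strand or the other. TATAAA is found in 12.4% and GAGGAA in 23.3% of the 32851 RefSeq windows of the same length. Among 23 tested members with a window, 8 hold TATAAA and 8 hold GAGGAA. Both sets include members with differences below 0, such as Ccl25 for TATAAA and Ccl27a for GAGGAA. Neither window matched the other 3 motifs. Promoters were found for 35 of the 48 members, and Ccl2 and Ccl7 were not among them.

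**Figure D3:**
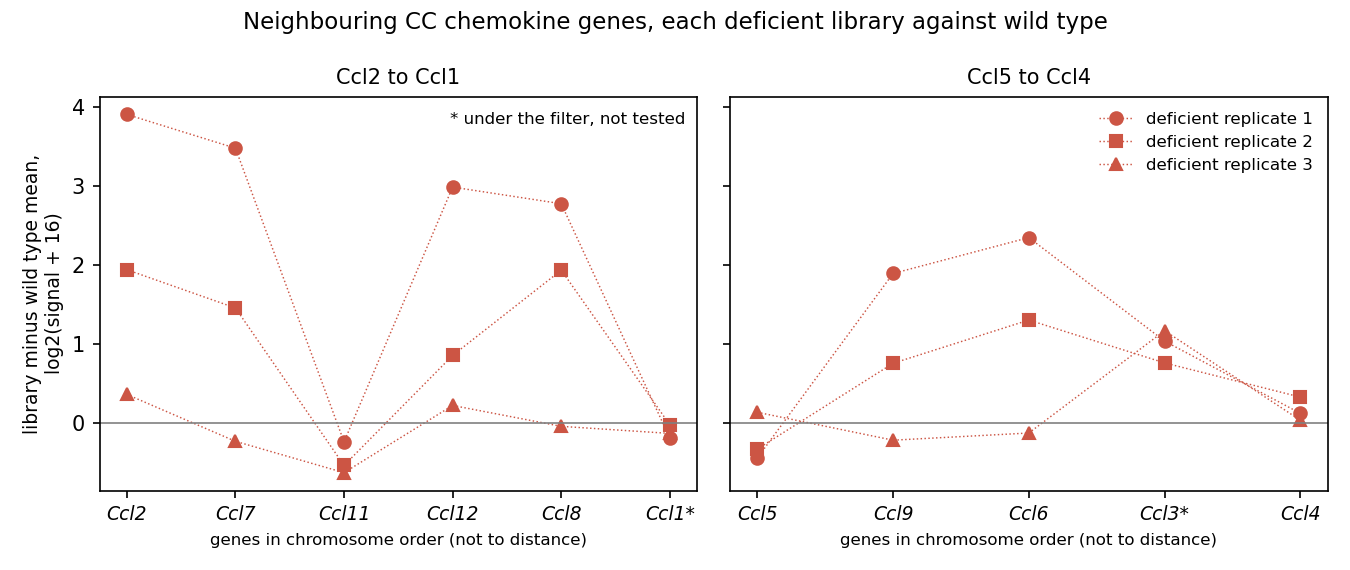
Each deficient library minus the wild type mean, on the scale of log2(signal + 16), for the neighbouring genes Ccl2 to Ccl1 (left) and Ccl5 to Ccl4 (right) in chromosome order; dotted lines join the values of 1 library. Deficient replicate 1 reaches 3.91 at Ccl2 and -0.24 at Ccl11, and deficient replicate 3 stays between -0.63 and 0.36 in the left panel.

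A further row on the same chromosome holds Ccl5, Ccl9, Ccl6, Ccl3 and Ccl4, a group of macrophage and T cell chemokines. Ccl6, a myeloid chemokine that binds Ccr1, read 317.4, 301.1 and 196 units in wild type and 1417, 678.9 and 241.5 units in deficient muscle. Deficient replicates 1 and 2 were above wild type and deficient replicate 3 within it (difference 1.17, 95% interval 0.03 to 2.31, adjusted p = 0.251). The other Ccl6 probe set read 81.8, 77 and 68.5 units in wild type and 418.4, 215.9 and 84 units in deficient muscle, where the groups did not overlap. Ccl9, the neighbouring Ccr1 ligand made by macrophages, read 316.4, 287.2 and 198.2 units in wild type and 1016, 453.2 and 222.8 units in deficient muscle (difference 0.81, adjusted p = 0.362). Its other probe set differed by 0.36, with 119.2, 122.8 and 68.4 units in wild type and 534.7, 96.5 and 38 units in deficient muscle. There only deficient replicate 1 was above wild type, and deficient replicate 3 was below it. Ccl3, a macrophage inflammatory protein, was under the filter at 3.7, 0.8 and 4.1 units in wild type and 22.5, 15.8 and 26.2 units in deficient muscle. All 3 deficient libraries were above wild type, deficient replicate 3 the highest of them, and in the fit without a filter Ccl3 differed by 0.99 (adjusted p = 0.0591). Ccl4, its close relative, read 13.2, 19.4 and 29.2 units in wild type and 23.1, 29.1 and 20.8 units in deficient muscle, and Ccl5, a T cell product, 29, 25 and 18.6 against 13.3, 15.7 and 27.8 units. Both overlapped between the groups, with differences of 0.16 and -0.22.

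**Figure D4:**
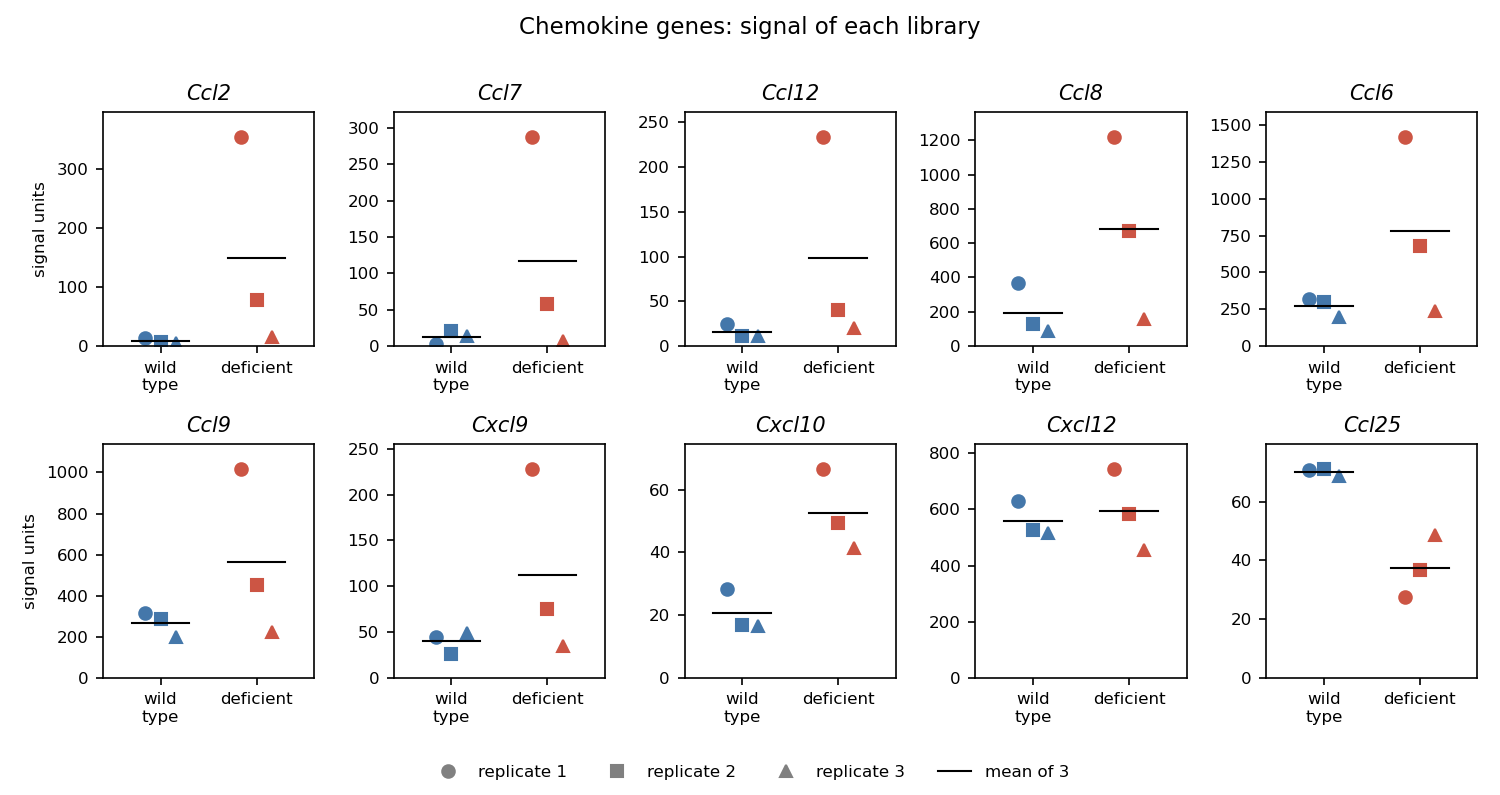
Signal units per library for 10 chemokine genes, with symbols for the replicate number and bars for the mean of 3. For Ccl2, Ccl7, Ccl12, Ccl8, Ccl6, Ccl9 and Cxcl9 the deficient libraries spread from deficient replicate 1 at the top to deficient replicate 3 near wild type, while Cxcl10 and Ccl25 set all 3 deficient libraries clearly on one side of wild type.

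Among the receptors, Ccr2, which marks inflammatory monocytes, read 13.4, 66.7 and 20.4 units in wild type and 337.6, 182.7 and 27.5 units in deficient muscle. Deficient replicates 1 and 2 were above every wild type library and deficient replicate 3 was not (difference 1.70, 95% interval 0.19 to 3.22, adjusted p = 0.21). The other Ccr2 probe sets that passed the filter differed by 0.79 and 0.73, so all 3 were above 0. Ccr1, found on monocytes, macrophages and neutrophils, read 49.5, 31.4 and 37.6 units in wild type and 204.6, 55.7 and 39.9 units in deficient muscle, where deficient replicate 1 stood alone at the top (difference 0.80, adjusted p = 0.364). Within the libraries with Y-linked transcripts Ccr2 differed by 2.43 and Ccr1 by 1.17, and between those without them by 0.26 and 0.06.

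Cx3cr1, the receptor of patrolling monocytes and resident macrophages, showed another order of the deficient libraries. It read 11.5, 5.4 and 29.9 units in wild type and 34.2, 44 and 58.8 units in deficient replicates 1 to 3. The groups did not overlap, and deficient replicate 3 was the highest (difference 1.02, 95% interval 0.30 to 1.74, adjusted p = 0.128). The difference was 1.18 within the libraries with Y-linked transcripts and 0.70 between those without them. A fainter Cx3cr1 probe set under the filter differed by -0.23. Its ligand Cx3cl1, which endothelium holds on its surface, read 9.4, 27.4 and 23.3 units in wild type and 42.7, 43.3 and 26.7 units in deficient muscle, with wild type replicate 2 above deficient replicate 3 (difference 0.59, adjusted p = 0.3).

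Cxcr4, the receptor that guides haematopoietic, myeloid and muscle precursor cells, read 131.8, 136.8 and 62.5 units in wild type and 234.7, 172.9 and 170 units in deficient muscle. All 3 deficient libraries were above wild type (difference 0.77, 95% interval 0.15 to 1.40, adjusted p = 0.174), from a mean of 110 ± 41.5 to one of 193 ± 36.6 units. Its ligand Cxcl12, made by stromal cells, read 630.6, 526.4 and 514.6 units in wild type and 743.5, 583.7 and 455.1 units in deficient muscle. The groups overlapped fully, with a difference of 0.07 (95% interval -0.40 to 0.54, adjusted p = 0.899), and the other Cxcl12 probe set above the filter differed by -0.39. Ackr3, the atypical receptor that takes up Cxcl12, read 338.8, 515 and 440.7 units in wild type and 287.9, 343 and 178.5 units in deficient muscle (difference -0.67, adjusted p = 0.2).

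**Figure D5:**
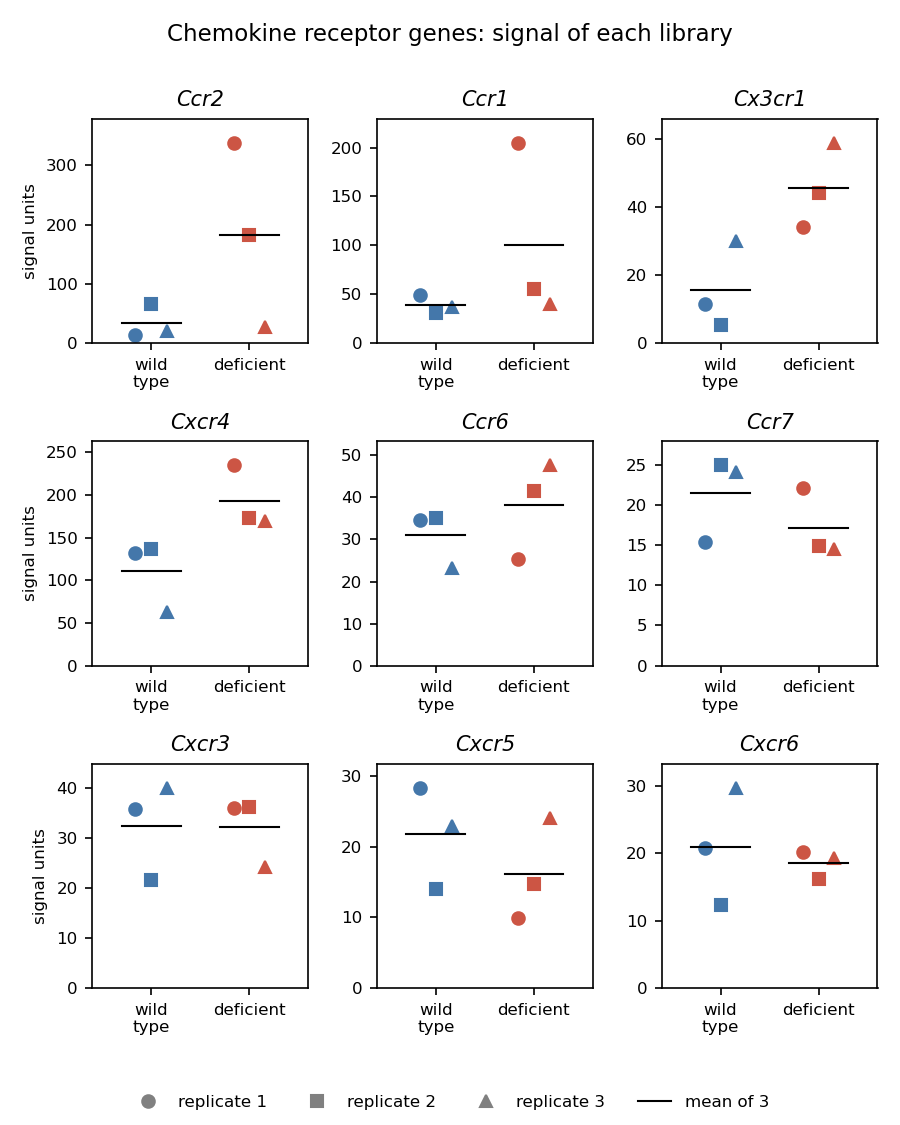
Signal units per library for the 9 receptor genes tested, with symbols for the replicate number and bars for the mean of 3. The groups do not overlap for Cx3cr1 and Cxcr4, and Ccr2 is high in deficient replicates 1 and 2, at 337.6 and 182.7 units.

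The ligands of Cxcr3, which are induced by interferons, had higher means while the receptor did not. Cxcl10 read 28.4, 16.7 and 16.5 units in wild type and 66.6, 49.5 and 41.5 units in deficient muscle. All 3 deficient libraries were above wild type, and the difference of 0.91 (95% interval 0.35 to 1.47) had the smallest adjusted p of the members tested, 0.0899. It was 0.95 within the libraries with Y-linked transcripts and 0.82 between those without them. Cxcl9, the neighbouring gene on chromosome 5, read 44.8, 26.1 and 49 units in wild type and 227.8, 75 and 35.2 units in deficient muscle, so deficient replicate 3 was inside the wild type range (difference 0.92, adjusted p = 0.333). The fainter Cxcl9 probe set read 14.2, 10.6 and 15.9 units against 42.7, 21.8 and 22.7 units, without overlap. Cxcr3 itself, a receptor of activated T and NK cells, read 35.7, 21.6 and 40 units in wild type and 35.9, 36.2 and 24.2 units in deficient muscle (difference 0.00, 95% interval -0.57 to 0.57). The difference was -0.04 with median centring and -0.07 with quantile normalization.

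The windows before Cxcl10 (chr5:92348890-92349139) and Cxcl9 (chr5:92328080-92328329), both on the minus strand of GRCm38.p6 and from RefSeq, are set side by side because both genes are ligands of Cxcr3 and neighbours with higher means. Capitals mark the same 5 motifs.
Cxcl10: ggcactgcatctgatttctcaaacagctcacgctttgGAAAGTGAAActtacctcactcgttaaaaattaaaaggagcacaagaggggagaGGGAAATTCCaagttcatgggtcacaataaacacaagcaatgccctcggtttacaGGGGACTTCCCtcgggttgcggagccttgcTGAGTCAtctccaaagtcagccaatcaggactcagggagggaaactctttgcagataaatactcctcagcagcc
Cxcl9: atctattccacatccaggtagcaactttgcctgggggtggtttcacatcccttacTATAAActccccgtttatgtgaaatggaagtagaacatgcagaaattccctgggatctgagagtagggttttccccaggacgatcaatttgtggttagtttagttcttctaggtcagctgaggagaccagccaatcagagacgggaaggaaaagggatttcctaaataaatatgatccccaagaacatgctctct
Cxcl10 holds the NF-kappaB consensus from base -159 and again, as a pair of overlapping matches, from bases -104 and -103, the interferon response element from base -213 and TGANTCA from base -74. Cxcl9 matched only TATAAA, from base -195. The NF-kappaB consensus is found in 7.25%, the interferon response element in 2.98% and TGANTCA in 6.75% of all windows of this length. Among 23 tested members with a window, 5 hold the NF-kappaB consensus (Ccl9, Ccr1, Ccr6, Cxcl1 and Cxcl10) and 2 hold the interferon response element (Cxcl10 and Cxcl14).

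Cxcl16, a membrane-bound chemokine and scavenger receptor of macrophages, read 69, 46.4 and 25 units in wild type and 119.2, 91 and 43.2 units in deficient muscle (difference 0.66, adjusted p = 0.349). Its fainter probe set read 19.8, 21.3 and 20.4 units in wild type and 119.6, 82.9 and 34.7 units in deficient muscle, where the groups did not overlap and the difference was 1.27. The receptor Cxcr6, carried by memory T and NKT cells, read 20.7, 12.3 and 29.7 units against 20.2, 16.2 and 19.3 units, which overlap (difference -0.07).

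Cxcl1, an attractant of neutrophils, read 52.2, 61.3 and 55.2 units in wild type and 62.5, 115 and 65.2 units in deficient muscle without overlap, deficient replicate 2 being the highest (difference 0.38, adjusted p = 0.422). Its other probe sets above the filter differed by -0.21 and 0.13, so the 3 did not point one way. Cxcl2, of the same family, lay under the filter at 4.2, 0.4 and 17.7 units in wild type and 29.4, 18.8 and 4.8 units in deficient muscle. Cxcl3 and Cxcl5 stayed under 20 units in every library, and their receptor Cxcr2 stayed between 1.4 and 3.4 units. Deficient replicate 2, the highest for Cxcl1 in its brightest probe set only, also had the highest sum of neutrophil markers, 6050 units, whose part in the Cxcl1 value was not tested. In the other Cxcl1 probe sets above the filter, deficient replicate 2 read 40.1 units, the lowest of all libraries, and 28.7 units. Deficient replicate 1 read 70.3 and 55.7 units there.

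Ccl25, known as an attractant of thymocytes and gut T cells through Ccr9, read 70.9, 71.1 and 68.7 units in wild type and 27.5, 36.7 and 48.5 units in deficient muscle. All 3 deficient libraries were below wild type (difference -0.71, 95% interval -1.19 to -0.22, adjusted p = 0.119), from 70.2 ± 1.33 to 37.6 ± 10.5 units. The fainter Ccl25 probe set differed by -0.04, and Ccr9 was under the filter. Cxcl14, a chemokine of skin and stroma, read 348.9, 344.9 and 158.4 units in wild type and 568.7, 239.3 and 62.8 units in deficient muscle, a spread that took in all wild type values (difference -0.32, 95% interval -1.69 to 1.05). Its other probe set read 450.6, 308.3 and 292.5 units in wild type and 276.9, 202.3 and 115.1 units in deficient muscle, without overlap. Wild type replicates 1 and 2 had the highest hair follicle and epidermis sums, 2051 and 1103 units, beside the Cxcl14 values of 348.9 and 344.9. Deficient replicate 1, highest for Cxcl14 at 568.7 in the brighter probe set, had a sum of 279.7 units. In the other probe set wild type replicate 1 was the highest, at 450.6 units. The part of hair and skin tissue in the Cxcl14 values was not tested. The skin chemokine Ccl27a read 90.3, 76 and 95.2 units in wild type and 89.8, 70.2 and 73.4 units in deficient muscle, and the mucosal Ccl28 31.5, 22.4 and 41.5 against 16.2, 37 and 42.2 units. Both overlapped, and their shared receptor Ccr10 stayed between 2 and 9.5 units.

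Cxcl13, the attractant of B cells into follicles, read 148.1, 117 and 126 units in wild type and 171.2, 73.2 and 115.5 units in deficient muscle (difference -0.17, adjusted p = 0.79), and its receptor Cxcr5 read 28.4, 14 and 23 against 9.9, 14.7 and 24.1 units (difference -0.23). Ccr7, which brings T cells and dendritic cells to lymph nodes, read 15.4, 24.9 and 24.1 units in wild type and 22.1, 14.9 and 14.5 units in deficient muscle (difference -0.17). Ccr6, found on B cells and some T cells, read 34.6, 35.2 and 23.3 against 25.3, 41.6 and 47.6 units (difference 0.19). None of these 4 separated the groups. The 6 B cell markers measured summed to 338.5 to 452.2 units in wild type and 283.7 to 338.4 units in deficient muscle, and of the 6 tested 0 rose and 0 fell.

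The ligands of Ccr3 and Ccr4 attract eosinophils and type 2 T cells. Besides Ccl11, Ccl24 read 72.8, 60.1 and 31.5 units in wild type and 63.4, 58.2 and 3.9 units in deficient muscle, where deficient replicate 3 alone lay below the wild type range (difference -0.48, adjusted p = 0.645). Ccl17 read 19, 14.4 and 21.8 units against 30.9, 47.4 and 19.7 units (difference 0.47) and Ccl22 6.3, 12.2 and 19.7 against 17.8, 10.4 and 27.9 units (difference 0.27). The groups overlapped in all 3, and Ccl22, whose mean of 15.7 units was the lowest of the members tested, passed only through the deficient libraries. Ccr3 and Ccr4 were under the filter. Ccl17, Cx3cl1 and Ccl22 are also neighbours, on chromosome 8.

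Of the 16 members under the filter, 7 were under 15 units in every library, and mean signals ran from 1.32 to 14.7 units. They were Cxcl15, Cxcl11, Cxcl2, Ccl3, Cxcl17, Cxcl3, Cxcl5, Ccl1 and Ccl20 among the ligands and Ccr4, Ccr9, Ccr1l1, Ccr10, Ccr3, Cxcr2 and Ccr8 among the receptors. Besides Ccl3, the groups did not overlap for Cxcl15, a chemokine known from lung, with 24, 33.9 and 15 units in wild type and 6.4, 5.1 and 3.7 units in deficient muscle (adjusted p = 0.107 in the fit without a filter). Its other probe set, fainter still, differed by 0.29. Over all 48 members the groups did not overlap for 6 that were higher and 2 that were lower, against 10.1% and 10.5% of all genes without a filter. The receptor of Ccl8, Ccr8, stayed between 0.5 and 2.2 units, and a level this low was not detectable on these arrays, which does not show that the receptor is absent.

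Of 36 known ligand and receptor pairs, 13 had both genes tested. In 10 of the 13 both differences were above 0, in 1 (Cxcr5 with Cxcl13) both were below 0 and in 2 (Ccr1 with Ccl5, Cxcr6 with Cxcl16) they were opposite. The 10 include both Cxcr3 pairs, where the receptor's difference was 0.00 and turned below 0 with median centring and quantile normalization. The 10 also hold the pairs of Ccl2 and Ccl7, which passed the filter only through the deficient libraries, where they were high. Cxcr4 with Cxcl12 is among the 10 as well. The Cxcl12 difference of 0.07 was -0.16 with the mean of probe sets and -0.10 without deficient replicate 1. Of all single genes tested, 52.6% had a difference above 0, which is a share of genes and not of pairs. The pairs share genes and libraries, so these counts are a description.

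Other chemokine system genes, outside the name rule, gave a mixed picture. Of 13 further ligands, receptors and partners, 11 were tested, 0 rose, 0 fell and 11 did not pass, with 1 higher and 2 lower at an unadjusted p under 0.05 (9.44% and 9.49% over all genes tested) and a median of -0.01 (0.02 over all genes tested). Ackr1, the receptor with which venules present chemokines, read 119.1, 141 and 106.9 units in wild type and 205.6, 165.6 and 190.1 units in deficient muscle, without overlap (difference 0.56, adjusted p = 0.152). Ccrl2, which binds the attractant chemerin, read 57.1, 74.2 and 105.7 units in wild type and 46.6, 45.8 and 42 units in deficient muscle, also without overlap (difference -0.61, adjusted p = 0.189). Among 31 tested genes of signalling below the receptors, 1 rose, 0 fell and 30 did not pass, with a median of 0.34, where 1.25% of all genes tested rose and their median was 0.02. A count of 1 in 31 is near that share. Ptk2b and Rgs1 of this list had wild type means of 9.9 and 14.8 units and passed the filter only through the deficient libraries. The filter thus favoured a higher median. The gene that rose was Rgs2, a brake on G protein signalling, from 136.4, 230.4 and 139.3 units to 506.9, 374.2 and 329 units (difference 1.20, adjusted p = 0.0393).

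Among 18 tested genes that induce chemokine genes or sense their triggers, 1 rose, 0 fell and 17 did not pass, with a median of 0.55, where 1.25% of all genes tested rose and their median was 0.02. The gene that rose was Stat3, the transcription factor of IL-6 family signalling, from 411.9, 521.8 and 396.2 units to 853.2, 751.3 and 1025 units (difference 0.96, adjusted p = 0.0355). Stat3 was highest in deficient replicate 3, the library in which the Ccr2 ligands were lowest among deficient mice. Of 16 tested genes of adhesion and display, 0 rose and 0 fell by limma, with 3 higher and 1 lower (Icam2, -0.74) at an unadjusted p under 0.05, where all genes gave 9.44% and 9.49%, and with a median of 0.36. Icam1, which holds leukocytes on the vessel wall, read 57.4, 51.2 and 52.6 units in wild type and 127.3, 108 and 94.9 units in deficient muscle without overlap (difference 0.85, adjusted p = 0.0508). The integrin gene Itgax read 17, 15.3 and 3.9 units in wild type and 61.4, 64.6 and 26.6 units in deficient muscle (difference 1.23, adjusted p = 0.0832). Its wild type mean of 12.1 units lay under the filter, so Itgax passed only through the deficient libraries, where it was high. Its place among the 3 higher and in the median of 0.36 was thus favoured by the filter.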

How the data were processed

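Total RNA was extracted with TRIzol and RNeasy columns and labelled as biotinylated cRNA, per the labels' protocols. The deposited table holds, for 45101 probe sets, the linear signal intensity on each array. No source used here names the algorithm behind it, and the table has no detection calls. With the lowest and highest 2% of values removed, every array averaged 100, so the arrays share a scale. Genes were named through GEO's platform annotation, in which 34945 probe sets had 1 symbol, 932 had several and 64 were controls.

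Values were taken as log2(signal + 16). Probe sets with a mean under the 40th percentile (15 units) were not tested, and the brightest probe set with 1 symbol stood for its gene. Groups and replicate numbers came from the titles. All 13098 genes were fitted in limma 3.58.1 (lmFit, eBayes with trend, no block, two-sided) in R 4.3.3, with Benjamini-Hochberg adjustment over all of them; every adjusted p in the text is from this fit unless stated. The steps were run on simulated data with independent noise of the same spread in both groups. That does not test them for members such as Ccl2, whose spread differed between the groups. The number of arrays limits the precision. The p-values rest on the spread between 3 libraries per group, pooled over both groups and moderated by eBayes with the spread of all genes tested.

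Members, marker and pathway lists and alternatives were chosen with earlier results of these data known. Values of every library are given for members without overlap, with a difference of at least 1, for tested receptors and for the 5 members of highest mean signal; other members named with values were chosen after these were seen. Of each pathway list, called members were named, or else the 2 of smallest p. Lists matched the annotation by symbol or gene identifier, and lists were described by counts and medians, with no list test. Ackr3 was named beside its ligand. Alternatives were quantile normalization, median centring, other pseudocounts and filters, a 1.5-fold minimum, the mean of probe sets, 2 other priors, a block on replicate number, Y-linked transcripts (Eif2s3y above 100 units) as a term, each library left out, and wild type replicates 1 and 2 left out together. Fits with libraries left out kept the filter and probe sets of the full fit.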

Additional observations from a re-analysis of the deposited data

How the results depend on the processing

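Over 19 alternatives, limma called 0 members lower in each, and it called 0 higher in all except 3. It called 3 higher with the replicate block (Ccl2, Ccl6 and Ccl8, where 3.21% of all genes were called higher) and 6 with Y-linked transcripts as a term. With 1 library left out, the count higher ran from 0 to 5, with the 5 reached without deficient replicate 3. Ccl2, which is in each of these counts above 0, and Ccl7, which is among the 5, passed the filter only through the deficient libraries. The same-numbered libraries correlated at 0.15, 0.07 and 0.30 in their deviations from the group means, against -0.29 to 0.21 for the other combinations. The highest of those was wild type replicate 2 with deficient replicate 1, at 0.21. The replicates numbered 3 were also the libraries without Y-linked transcripts in both groups. The labels do not say that the numbers pair the mice, so the main fit had no block, and whether they do was not tested.

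The differences of 9 members changed sign in some fits, and none of the 9 was called in those fits. Cxcr3 stood at -0.043 with median centring, -0.068 with quantile normalization, -0.003 with a pseudocount of 64 and -0.23 without wild type replicates 1 and 2 together, and ran from -0.172 to 0.124 with 1 library left out at a time. Cxcl12 stood at -0.16 with the mean of probe sets and ran from -0.103 (without deficient replicate 1) to 0.241. Without wild type replicates 1 and 2 together, Cxcl14 stood at 0.38, Ccl24 at 0.043, Ccl4 at -0.17 and Ccl22 at -0.072. With 1 library left out at a time, the values ran from -1.003 to 0.44 for Cxcl14, -0.83 to 0.17 for Ccl24, -0.43 to 0.11 for Cxcl13, -0.19 to 0.24 for Ccl28 and -0.25 to 0.10 for Cxcr6. The cause of these sign changes was not tested. Over all genes tested, 353 were called in the fit of all libraries, and from 19 (without wild type replicates 1 and 2 together) to 1145 (with the Y-linked term) in the alternatives. The fit without wild type replicates 1 and 2 leaves 1 wild type library, assumed to vary like the deficient ones. With 6 arrays and no detection calls, low signals could not be told from background.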

Other observations

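Some chemokine probe sets carry several gene symbols and were outside the comparison. The probe set shared by the Ccl21 genes, whose products guide cells into lymph nodes through Ccr7, read 674.3, 653 and 616.1 units in wild type and 846.9, 710.3 and 394.3 units in deficient replicates 1 to 3, so the deficient libraries lay on both sides of wild type. The probe set shared by Ccl19 and 9 other symbols read 64.4, 44.5 and 79 units in wild type and 81.1, 42.4 and 64.3 units in deficient muscle. Of the pair shared by Ccl27a, Ccl27b and other symbols, the first read 164.4, 99.9 and 99.1 against 98.9, 101.4 and 123 units, and the second read 120.1, 140.3 and 110.8 units in wild type and 104.4, 97.3 and 77.9 units in deficient muscle, where every deficient library was below wild type.

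Pf4, a platelet chemokine gene that macrophages also express, read 523.2, 377.1 and 306.5 units in wild type and 1227, 635.3 and 335.3 units in deficient replicates 1 to 3. Ppbp, the other platelet chemokine gene, read 5.1, 110.7 and 21.4 units in wild type and 36.8, 58.2 and 9.1 units in deficient muscle, and was highest in wild type replicate 2. Neither passed the test, with adjusted p values of 0.39 and 0.997.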
